A study of Mus musculus with 2 samples.

Results

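The cells described here are retinal pigment epithelium (RPE) cells of sodium iodate-treated mice in which mitochondrial transcripts made up 12 to 25% of all counts. They were chosen from the NaIO3 library in 4 steps: barcodes with at least 500 genes, a summed level of the visual cycle genes Rpe65, Rlbp1, Rgr, Lrat and Rdh5 of at least 100 per 10000 counts, fewer than 5 unique molecular identifiers (UMIs) of Ifit1 and Ifit3, and a summed level of the melanosome genes Pmel, Dct, Mlana, Tyrp1 and Serpine3 below the 75th percentile of the RPE cells. That left 1617 of 4058 barcodes, of which 739 lay at 12 to 25% mitochondrial counts, 839 lay under 12% and 39 lay over 25%. The 739 cells are a range of a continuous measure and not a separate cell type: 133 cells lay at 11 to 12% and 138 at 12 to 13%, with median nuclear-encoded counts of 8355 and 7938. Since the cells were chosen by their own counts, every comparison with the cells under 12% of the same library is a description.

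The study profiled single cells of the RPE-choroid of C57BL/6J mice on the 10x Genomics droplet platform. NaIO3, an oxidant that injures the RPE, was given intravenously at 20 mg/kg in phosphate-buffered saline (PBS), control mice received PBS alone, and the labels give 7 days of treatment for both. Eyes of 6 mice per group were pooled into 1 library, so no difference below has a replicate check and no test was possible. Hexagonal brown cells were picked under a microscope after dispase digestion, so only cells present on that day and recovered by this handling were measured. No source used here gives the age or sex of the mice. The libraries had 51168520 (NaIO3) and 51055592 (PBS) UMIs, the lowest total of a barcode was 4217 and 2979, and 24 barcode sequences occurred in both, 4 of them among the 739 cells. Leaving those barcodes out gave 3553 higher and 992 lower genes in place of the 3556 and 999 described below.

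The RPE is a single layer of pigmented cells that renews the visual chromophore, takes up shed photoreceptor outer segments and moves ions and nutrients between the choroid and the retina. It relies heavily on oxidative phosphorylation and passes glucose on to photoreceptors. The respiratory chain is built from proteins of both genomes: 13 are translated from mitochondrial mRNAs, and all others come from nuclear genes. The share of mitochondrial counts in a droplet is the ratio of mitochondrial UMIs to all UMIs, so it is higher when mitochondrial RNA is more abundant or when other RNA is less abundant.

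In the NaIO3 library 45.7% of the selected RPE cells lay at 12 to 25% (43.3 to 48.2, exact Clopper-Pearson 95% interval), and in the PBS library, selected by the same rule, 392 of 2825 cells did, 13.9% (12.6 to 15.2). Intervals throughout cover counting error only and not the difference between animals. Of the melanosome-rich RPE cells that the rule set aside, 52.5% of 562 NaIO3 cells and 20.1% of 941 PBS cells lay in this range. Both kinds of RPE cell thus had the larger share in the NaIO3 library.

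The cells at 12 to 25% did not hold more mitochondrial UMIs. The median was 1140 mitochondrial UMIs per cell (quartiles 969 and 1396) against 1173 (919.5 and 1575) in cells under 12%, a ratio of 0.972. Nuclear-encoded UMIs had a median of 6005 (4797 and 7900) against 11940 (8766 and 17504), a ratio of 0.503. The higher share therefore went with fewer nuclear-encoded counts and a like number of mitochondrial counts. PBS cells showed the same arithmetic, with median ratios of 1.02 for mitochondrial and 0.468 for nuclear-encoded UMIs. Fewer RNA molecules in a cell, RNA lost before capture and a lower capture rate in the droplet cannot be told apart in these counts.

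**Figure D1:**
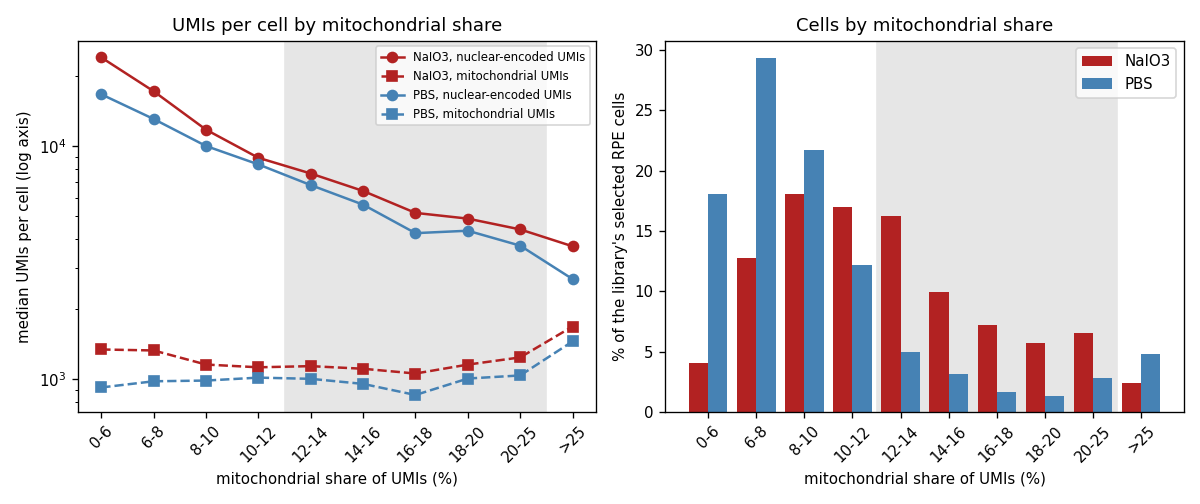
Left, median UMIs per cell (log axis) in bins of the mitochondrial share, for nuclear-encoded (circles) and mitochondrial UMIs (squares) in each library. Right, the percentage of each library's selected RPE cells in each bin, with the 12 to 25% range shaded. In NaIO3 cells the median of nuclear-encoded UMIs goes from 24051 in the lowest bin to 4392 at 20 to 25%, while mitochondrial UMIs stay between 1056 and 1340.

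Each of the 13 mitochondrial mRNAs was measured. mt-Co3, a subunit of cytochrome c oxidase, had 308 UMIs per cell at 12 to 25% and 307 under 12%. mt-Cytb, the mitochondrial subunit of complex III, had 206 and 205, and mt-Co1 had 192 and 212. The abundant mitochondrial mRNAs were thus near equal per cell, and the lowest ratios of UMIs per cell were 0.670 for mt-Nd6 (0.267 against 0.398 UMIs) and 0.674 for mt-Atp8 (2.70 against 4.01 UMIs). Within the mitochondrial counts, mt-Nd6 had a ratio of 0.698 (0.583 to 0.835), mt-Atp8 0.703 (0.665 to 0.743), mt-Nd2 0.80 (0.784 to 0.816) and mt-Nd4l 0.821 (0.780 to 0.864). In PBS cells the same 4 had 0.601, 0.635, 0.888 and 0.788. mt-Nd6 is the only one of the 13 mRNAs encoded on the light strand, and mt-Atp8 and mt-Nd4l share overlapping transcripts with mt-Atp6 and mt-Nd4, so their counts depend on how the authors assigned overlapping reads.

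Levels of nuclear genes are given as counts per 1000000 nuclear-encoded counts (CPM), summed over the cells of a group, with no mitochondrial counts in the denominator. A gene is called lower at a ratio of 0.8 or less and higher at the inverse of that or more, among genes with at least 200 summed counts. Of 7446 such genes, 3556 were higher (47.8%) and 999 were lower (13.4%), and the median gene had a log2 ratio of 0.30, a ratio of 1.23. This split depends on the scale: higher genes were 78.1% of the calls here, 67.0% with all counts as the denominator, and 41.8% after division by the median ratio. A ratio near 1.23 is therefore the middle of the genes and not a feature of a gene. Per cell the picture was one-sided, since 73 genes (0.98%) had more UMIs per cell at 12 to 25% than under 12%.

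Depth differs between the groups, so each ratio was also computed in 10 strata of nuclear-encoded UMIs, with both groups weighted alike, of which 9 could be used and held 738 of the 739 cells. In cells matched in this way (depth-matched), the median gene had a log2 ratio of 0.11, and 1836 genes were higher and 639 lower. Ratios matched for nuclear-encoded UMIs are given below for the gene lists and the leading genes, and in the plot of named genes for all of those.

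The 15 genes highest by the bound of their interval nearest to 1 are led by Slc7a5, a known target of the transcription factor ATF4. It encodes the light chain of the LAT1 carrier of leucine and other large neutral amino acids. Slc7a5 (chromosome 8, 121881150 to 121907694, minus strand, GRCm38) stood at 251 CPM in the cells at 12 to 25% and at 88.0 CPM under 12%. Its ratio was 2.85 (2.62 to 3.10, exact conditional 95% interval), and its UMIs per cell had a ratio of 1.34. With cells matched for nuclear-encoded UMIs the ratio was 1.60. In PBS cells it stood at 82.3 and 42.0 CPM, a ratio of 1.96 (1.67 to 2.29). Slc7a5 was thus higher in the high-share cells of both libraries, and its level there was 3.05 times higher (2.61 to 3.57) in NaIO3 than in PBS.

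All 15 of these genes had more UMIs per cell at 12 to 25%, with ratios from 1.07 to 1.34. The ratio per cell and the ratio in CPM differ by the same factor for every gene. More UMIs per cell thus follow from the high CPM ratios by which these genes were chosen and are no separate result. Cdh3, the P-cadherin of RPE junctions, stood at 397 against 173 CPM, a ratio of 2.30 (2.16 to 2.44, and 1.58 in depth-matched cells), and at 220.2 against 116 CPM in PBS. Trpm1, a cation channel of pigment cells and the host gene of miR-211, stood at 109 against 42.8 CPM, a ratio of 2.54 (2.25 to 2.87, and 1.80 in depth-matched cells). Ggt1, which cleaves glutathione outside the cell, stood at 145 against 59.0 CPM, a ratio of 2.45 (2.21 to 2.73, and 1.55 in depth-matched cells). The group also held Mpp2, Scaf1, Ppp6r1, Anks1, Ssh1, Atp9a, Cspg4, Caskin1 and Fxr2.

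Ctns and Dkk3 differed most in level between the libraries. Ctns, the lysosomal cystine exporter, stood at 53.5 against 21.5 CPM in NaIO3, a ratio of 2.49 (2.09 to 2.96, and 1.99 in depth-matched cells). In PBS it stood at 14.9 against 13.2 CPM, a ratio of 1.13 with an interval that includes 1 (0.769 to 1.60). Dkk3, a secreted protein of the Dickkopf family, stood at 71.2 against 29.1 CPM in NaIO3, a ratio of 2.45 (2.10 to 2.85), and at 17.1 against 11.8 CPM in PBS, a ratio of 1.45 (1.01 to 2.02). Between the cells at 12 to 25% of the libraries, Dkk3 was 4.17 times higher in NaIO3 (2.99 to 5.96) and Ctns 3.59 times (2.51 to 5.29), where 36.5% of 5001 genes were called higher in NaIO3 and 15.3% lower. The ratio of Dkk3 matched for nuclear-encoded UMIs was 1.41 in NaIO3 and 0.84 in PBS, so its direction in PBS turned.

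Of the 15 lowest genes 14 are described. Ndufa4, a small subunit of the respiratory chain, stood at 906 against 1851 CPM, a ratio of 0.490 (0.474 to 0.506), with 6.08 against 26.4 UMIs per cell. Mpc1, a subunit of the mitochondrial pyruvate carrier, stood at 123 against 273 CPM, a ratio of 0.452 (0.413 to 0.492), and its partner Mpc2 at 77.1 against 161 CPM, a ratio of 0.478 (0.427 to 0.533). Cox7a2, of cytochrome c oxidase, stood at 420.2 against 850.3 CPM, a ratio of 0.494 (0.471 to 0.518). These respiratory and pyruvate carrier genes were near 0.5 of the level in CPM and well under that per cell. Hist2h2aa1, a core histone, stood at 87.1 against 243 CPM, a ratio of 0.359 (0.324 to 0.397), and Gstp1, a glutathione transferase, at 34.3 against 94.9 CPM, a ratio of 0.361 (0.306 to 0.425). Both have a close copy in the genome, so their counts are uncertain where reads matched both. The others were Spcs1, Chchd1, Ddt, Usmg5, Polr2l, Fam122a, Acyp1 and Ndufb6, at ratios up to 0.50.

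In PBS cells, which the choice of these genes did not use, 14 of the 15 higher genes were called higher at 12 to 25% (43.4% of 8616 genes were), the exception being Ctns. Of the 14 lower genes 12 were lower in PBS (10.3% of genes were), and the exceptions Usmg5 and Polr2l had ratios of 0.85 and 0.84. Matched for nuclear-encoded UMIs, the 15 higher genes had ratios from 1.26 to 2.04 and the 14 lower ones from 0.548 to 0.822. The direction was thus the same for all of them in NaIO3, and 1 of the lower genes, Polr2l, no longer reached 0.8. The higher genes had transcripts of 2167 to 8436 bases and the lower ones of 586 to 2733, 10 of the 14 being no longer than 1000.

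**Figure D2:**
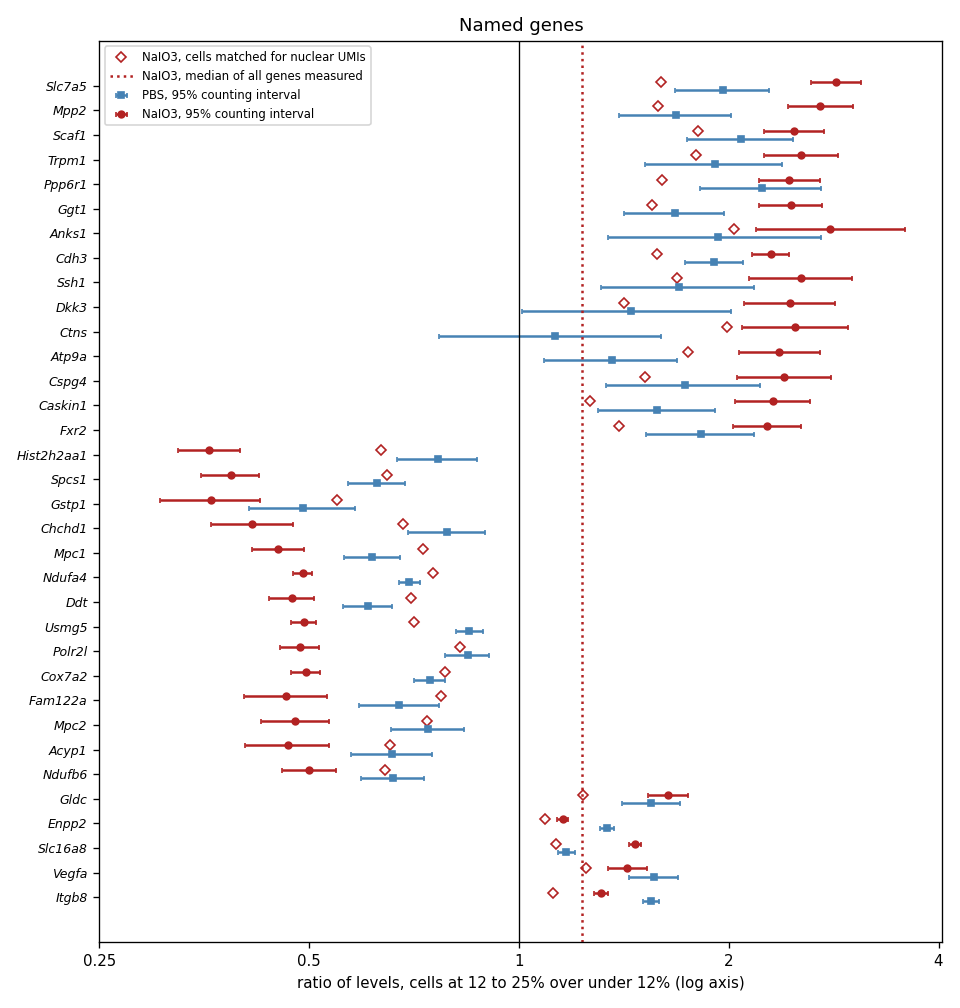
Ratio of levels (log axis) of the 34 named genes, cells at 12 to 25% over cells under 12%, in NaIO3 (circles) and PBS (squares) with exact 95% counting intervals. Diamonds give NaIO3 cells matched for nuclear-encoded UMIs, and the dotted line is the NaIO3 median of all genes, 1.23. The first 15 genes lie right of 1 and the next 14 left of 1 in both libraries, and the diamonds lie nearer to 1.

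Gldc, Enpp2, Slc16a8, Vegfa and Itgb8 were given with these cells as their markers. Gldc, the glycine decarboxylase of the mitochondrial glycine cleavage system, stood at 313 against 191 CPM, a ratio of 1.64 (1.53 to 1.75). Slc16a8, the basolateral lactate carrier MCT3 of the RPE, stood at 3318 against 2258 CPM, a ratio of 1.47 (1.44 to 1.5). Vegfa, the growth factor that maintains the choriocapillaris, stood at 307 against 215 CPM, a ratio of 1.43 (1.34 to 1.53). Gldc, Slc16a8 and Vegfa were above the median gene, while the remaining markers were close to it. Itgb8, an integrin that activates TGF-beta, stood at 2274 against 1732 CPM, a ratio of 1.31 (1.28 to 1.34), and Enpp2, the secreted enzyme autotaxin, at 3498 against 3027 CPM, a ratio of 1.16 (1.13 to 1.18). Enpp2 lay under the ratio of the median gene. All 5 had fewer UMIs per cell at 12 to 25%, from 2.10 against 2.72 for Gldc to 23.5 against 43.1 for Enpp2. In PBS cells the ratios were 1.55 for Gldc, 1.17 for Slc16a8, 1.56 for Vegfa, 1.55 for Itgb8 and 1.34 for Enpp2. All 5 were thus above 1 in the high-share PBS cells, but the median gene there also was, at 1.18. Slc16a8 lay just under that median. Matched for nuclear-encoded UMIs, the NaIO3 log2 ratios were 0.32 for Vegfa, 0.31 for Gldc, 0.18 for Slc16a8, 0.16 for Itgb8 and 0.12 for Enpp2. The median gene so matched had 0.11.

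Most nuclear genes of the respiratory chain were lower. Of 37 genes listed under complex I, the NADH dehydrogenase, 26 were lower and 3 higher, with a median log2 ratio of -0.49. Ndufa4, the lowest in this list, is named for complex I but is now assigned to cytochrome c oxidase. Of 25 genes of complexes II to IV and cytochrome c, 16 were lower and 2 higher (median -0.52), and of 16 ATP synthase genes 10 were lower and none higher (median -0.51). Of the 78 genes together, 52 were lower and 5 higher, against 13.4% and 47.8% of all genes, and their transcripts had a median length of 913 bases. Their share of nuclear-encoded counts was 3.36% at 12 to 25% and 4.83% under 12%, with 225 and 689 UMIs per cell. Since the cells were chosen by their mitochondrial share, a larger mitochondrial part beside this nuclear part is fixed by the choice and is no result.

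Among the most abundant members, Ndufv3 stood at 957 against 1287 CPM and had a ratio of 0.74. Ndufb11, a membrane subunit of complex I, stood at 619.7 against 1065 CPM, a ratio of 0.58. Cox8a, of cytochrome c oxidase, stood at 1781 against 2643 CPM, a ratio of 0.67, and Cox7c at 875 against 1403 CPM, a ratio of 0.62. Atp5l, the g subunit of ATP synthase, stood at 684 against 1276 CPM, a ratio of 0.54. Among the 5 genes that were higher were Ndufa9 (1.32), Ndufs1 (1.33), Sdhc (1.27) and Uqcrc1 (1.37), named after their values were seen. In PBS cells the 78 genes had a median log2 ratio of -0.30, with 34 lower and 1 higher. The medians matched for nuclear-encoded UMIs were -0.22 in NaIO3 and -0.23 in PBS.

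The factor NRF1 is known to bind promoters of many respiratory chain genes, so the promoters were searched for its core, GCATGCGC, on both strands of the 250 bases before the start. RefSeq promoters (GRCm38.p6) matched 65 of the 78 genes, and 9 of them held the core, 13.8%, against 2.32% of all 27025 promoters. The 27025 include promoters of genes not measured here, so the 2 shares are not of like genes. 4 abundant genes with the core are shown, because they belong to the group that was lower as a whole, each as 60 bases from the gene's own strand with the core in capitals.
Atp5k, chr5:108434414-108434473, minus strand: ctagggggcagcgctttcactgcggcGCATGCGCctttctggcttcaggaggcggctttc
Atp5l, chr9:44920933-44920992, minus strand: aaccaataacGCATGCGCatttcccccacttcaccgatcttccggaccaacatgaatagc
Cox6a1, chr5:115349085-115349144, minus strand: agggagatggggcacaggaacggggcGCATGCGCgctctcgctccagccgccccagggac
Ndufa11, chr17:56717678-56717737, plus strand: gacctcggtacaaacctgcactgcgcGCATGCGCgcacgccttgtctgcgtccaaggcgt
The core began 48, 240, 160 and 58 bases before the start. These 4 genes had ratios of 0.664, 0.536, 0.613 and 0.806. The 9 genes with the core had a median log2 ratio of -0.59 and those without it -0.52. The relation of the core to the ratios was not tested, and a match is no evidence of binding. Nrf1 itself, named after its values were seen, had a ratio of 1.85 in NaIO3 and 1.09 in PBS.

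Most ribosomal protein genes were lower too. Of 80 cytosolic ribosomal protein genes 47 were lower and none higher, against 13.4% and 47.8% of all genes (median log2 ratio -0.38, -0.26 in PBS), and their share of nuclear-encoded counts was 4.28% against 5.66%. Rpl41, the smallest of them, stood at 2074 against 3386 CPM, a ratio of 0.61. Of 70 mitochondrial ribosomal protein genes 43 were lower, and Mrpl44 (1.31) and Mrpl37 (1.67) were higher (median -0.41, -0.26 in PBS). In depth-matched NaIO3 cells the medians of these lists were -0.17 and -0.18, under the 0.11 of all genes. Their transcripts had median lengths of 925.5 and 1284 bases. All genes of 750 to 1000 bases had a median log2 ratio of -0.38 with 55.7% lower (-0.17 in depth-matched cells). Those of 1000 to 1500 bases had -0.16 with 33.4% lower (-0.05 in depth-matched cells). The part of length in these lists was not tested.

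Other mitochondrial genes did not share one direction. Of 17 genes of the citric acid cycle and its entry, 7 were higher and 3 lower, near the 47.8% and 13.4% of all genes, with a median of 0.16 below their 0.30 (0.20 in depth-matched cells). Pcx, pyruvate carboxylase, stood at 154 against 84.5 CPM, a ratio of 1.82, and Ogdh at 172 against 115 CPM, a ratio of 1.49, while Suclg1 stood at 187 against 254 CPM, a ratio of 0.74. Of 9 genes of mitochondrial transcription and biogenesis 6 were higher and Slirp (0.62) and Ssbp1 (0.65) were lower, with Ppargc1a, the coactivator of mitochondrial biogenesis, at 103 against 66.9 CPM, a ratio of 1.54 (list median 0.47, and 0.31 in depth-matched cells). Of 15 mitophagy and dynamics genes 4 were higher and 2 lower (median 0.03, and 0.01 in depth-matched cells). Of 13 mitochondrial chaperones and proteases 5 were higher and 1 lower, Hspa9 with a ratio of 1.47 and Hspe1 with 0.59 (list median 0.24, and 0.08 in depth-matched cells).

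Transcript length followed the ratio across all genes. In NaIO3 cells the median log2 ratio was -0.48 for 217 genes of up to 750 bases, -0.16 for 736 genes of 1000 to 1500 bases, 0.30 for 1515 genes of 2000 to 3000 bases and 0.49 for 779 genes of 6000 to 9000 bases. Spearman's rho between length and ratio across 7442 genes was 0.484, and 0.562 across 8608 genes in PBS. Genes of a library share its cells and depth, so these are descriptions. Long and short transcripts thus lay on opposite sides of 0 in both libraries. Within the lowest, middle and highest parts of expression level rho was 0.361, 0.448 and 0.576. Matched for nuclear-encoded UMIs the NaIO3 medians ran from -0.18 to 0.25 over the same lengths. The part of length in the ratios of single genes was not tested.

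**Figure D3:**
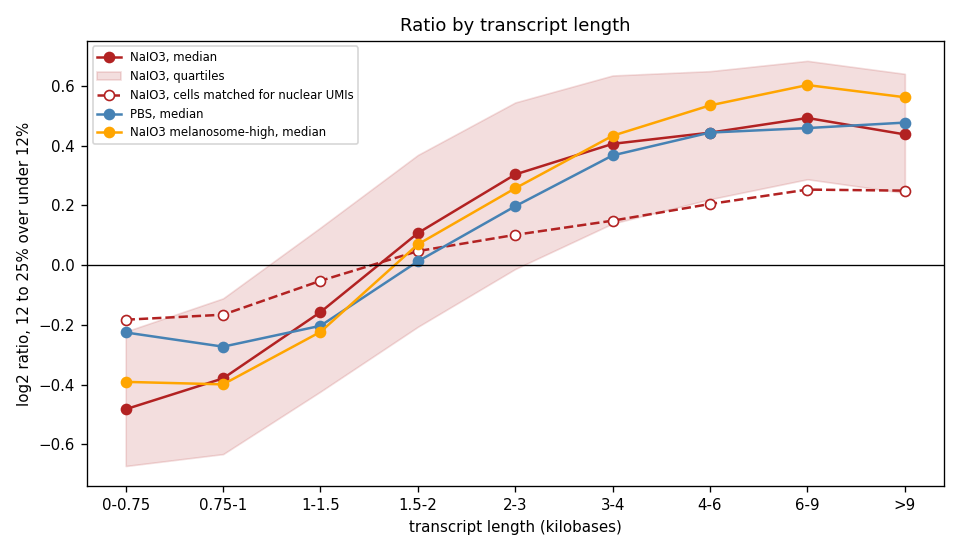
Median log2 ratio of genes (vertical) in bins of transcript length in kilobases (horizontal), for NaIO3 (with quartiles shaded), PBS and melanosome-rich NaIO3 cells. The dashed line shows NaIO3 cells matched for nuclear-encoded UMIs. All lines go from under 0 for the shortest transcripts to above 0 for the longest.

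Of 3 RNAs that stay in the nucleus 1, Neat1, was higher (list median log2 ratio 0.28, and 0.35 in depth-matched cells, against 0.30 and 0.11 for all genes). Malat1 made up 5.51% of nuclear-encoded counts at 12 to 25% and 4.54% under 12%, a ratio of 1.22 (1.21 to 1.22), close to the median gene, and 8.45% against 5.58% in PBS, a ratio of 1.51. Neat1, the scaffold of paraspeckles, had a ratio of 1.82 (1.68 to 1.97) in NaIO3 and 1.92 (1.68 to 2.18) in PBS. Per cell both had fewer UMIs at 12 to 25%, 370 against 647 for Malat1 in NaIO3. Their relation to the other ratios was not tested.

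RPE identity genes were mixed. Ttr, transthyretin, an abundant RPE transcript, made up 4.05% against 7.41% of nuclear-encoded counts in NaIO3, a ratio of 0.546 (0.543 to 0.549), and 7.26% against 10.2% in PBS, a ratio of 0.709. Of 12 visual cycle and retinoid genes 4 were higher and 3 lower, against 47.8% and 13.4% of all genes (median log2 ratio 0.17, and 0.05 in depth-matched cells). 5 genes of the list were used to choose the cells, and among these Rlbp1 had a ratio of 1.31, Rpe65 of 0.89, Rdh5 of 0.79 and Rgr of 0.74. The counts thus hold genes of the rule: Rlbp1 was among the higher, and the 3 lower were Ttr, Rdh5 and Rgr. Otx2, a transcription factor of RPE identity, stood at 373 CPM in both groups, and Sox9 at 368 against 244 CPM, a ratio of 1.51. The visual cycle sum itself was 202 against 229 per 10000 nuclear-encoded counts at the median cell.

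Genes of the RPE's surface were mostly higher than the median gene, as were long transcripts in general. All genes of 4000 to 6000 bases had a median log2 ratio of 0.44 with 65.4% higher, and 0.20 in depth-matched NaIO3 cells. The channels and transporters listed next had transcripts with a median length of 4264 bases. Of 19 channels and transporters 14 were higher, against 47.8% of all genes (median log2 ratio 0.45, 0.47 in PBS, and 0.19 in depth-matched NaIO3 cells). Slc6a6, the taurine carrier, stood at 828 against 478 CPM, a ratio of 1.73, and Slc4a5, a bicarbonate carrier, at 1026 against 610.2 CPM, a ratio of 1.68. The 1 lower gene was Kcnj13, the apical potassium channel Kir7.1, at 524 against 912 CPM, a ratio of 0.57 (0.55 to 0.60) in NaIO3 and 0.69 in PBS.

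For the next 3 lists, the shares to compare are 47.8% higher among all genes and 65.4% among those of 4000 to 6000 bases. Of 9 integrins 7 were higher (median 0.69, 0.63 in PBS), with Itgb5, the receptor subunit of outer segment uptake, at 165 against 101 CPM, a ratio of 1.63. Of 11 genes of outer segment uptake 7 were higher (median 0.51, 0.44 in PBS), among them Rac1 at 547 against 358 CPM, a ratio of 1.53, and Gas6, a ligand of MerTK, at 169 against 118 CPM, a ratio of 1.43. Of 10 genes of Bruch's membrane and the matrix 7 were higher (median 0.52, 0.51 in PBS), with Timp3, whose mutations cause a macular dystrophy, at 7928 against 4790 CPM, a ratio of 1.66, while Cst3 stood at 23888 against 33202 CPM, a ratio of 0.72. These 3 medians matched for nuclear-encoded UMIs were 0.16, 0.18 and 0.22, against 0.20 for all genes of 4000 to 6000 bases. Transcripts of these 3 lists had median lengths of 4806, 4159 and 5612 bases. The part of length in these lists was not tested.

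The shares of lysosomal and glycolytic genes called higher were near that of all genes, of which 47.8% were higher and 13.4% lower. Of 22 lysosomal genes 12 were higher and none lower (median 0.36, 0.20 in PBS). Psap, the precursor of the saposins, stood at 6624 against 4059 CPM, a ratio of 1.63, Gaa, acid alpha-glucosidase, at 413 against 214 CPM, a ratio of 1.94, and Npc2 at 891 against 906 CPM, a ratio of 0.98. Of 19 genes of glycolysis and lactate 11 were higher and Pgk1 (0.63) was lower (median 0.37, 0.17 in PBS), with Slc2a1, the glucose transporter GLUT1, at 1062 against 765 CPM, a ratio of 1.39. Matched for nuclear-encoded UMIs the glycolysis median was 0.06, and Slc2a1 had a ratio of 1.03. The lysosomal median so matched was 0.11, equal to that of all genes.

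Stress genes differed by list. Of 21 ATF4 targets and unfolded protein response genes 6 were higher and none lower, against 47.8% and 13.4% of all genes (median 0.20, below that of all genes, and 0.07 in depth-matched cells). The chaperones Hspa5, at 299 against 265 CPM, and Calr, at 476 against 422 CPM, had ratios of 1.13. Slc7a5 was higher, whereas Slc3a2, the heavy chain that pairs with it, stood at 269.9 against 237 CPM, a ratio of 1.14 (1.06 to 1.21). Atf4 (1.86) and Sesn2 (2.54), named after their values were seen, were also among the 6. Of 3 metallothioneins none was higher, and Mt3 was lower (0.68, and 1.02 in PBS). Of 22 genes of the NRF2 and glutathione list 9 were higher and 2 lower, near the shares of all genes (median 0.20, and 0.05 in depth-matched cells).

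Immediate early genes, which also respond to tissue dissociation, had the same median when depth was matched. Of 16 measured, 13 were higher and none lower in NaIO3, against 47.8% and 13.4% of all genes (median log2 ratio 0.45, and 0.45 matched for nuclear-encoded UMIs). Egr1 stood at 79.7 against 44.5 CPM, a ratio of 1.79 (1.57 to 2.04), Fos at 69.0 against 43.0 CPM, a ratio of 1.60 (1.40 to 1.84), Dusp1 at 72.6 against 48.2 CPM, a ratio of 1.51 (1.32 to 1.72), and Junb at 101 against 76.6 CPM, a ratio of 1.32 (1.18 to 1.48). In PBS, of 13 measured 2 were higher and 2 lower, against 43.4% and 10.3% of all genes there (median -0.01, and -0.31 matched). Fos in PBS stood at 8.76 against 11.6 CPM, a ratio of 0.76 whose interval includes 1 (0.46 to 1.19). Egr1 in PBS stood at 62.1 CPM under 6%, 77.6 at 10 to 12%, 80.1 at 12 to 14% and 88.1 at 20 to 25%. In melanosome-rich NaIO3 cells 2 of 8 measured were higher and none lower, against 45.4% and 18.5% of all genes there. The list median in those cells was 0.26, near the 0.25 of all genes, and 0.14 against 0.07 in depth-matched cells. Fos, Dusp1 and Junb stood at 18.8%, 17.1% and 13.3% of their level in the non-RPE barcodes of the NaIO3 library, and the part of RNA from other cells in them was not tested.

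**Figure D4:**
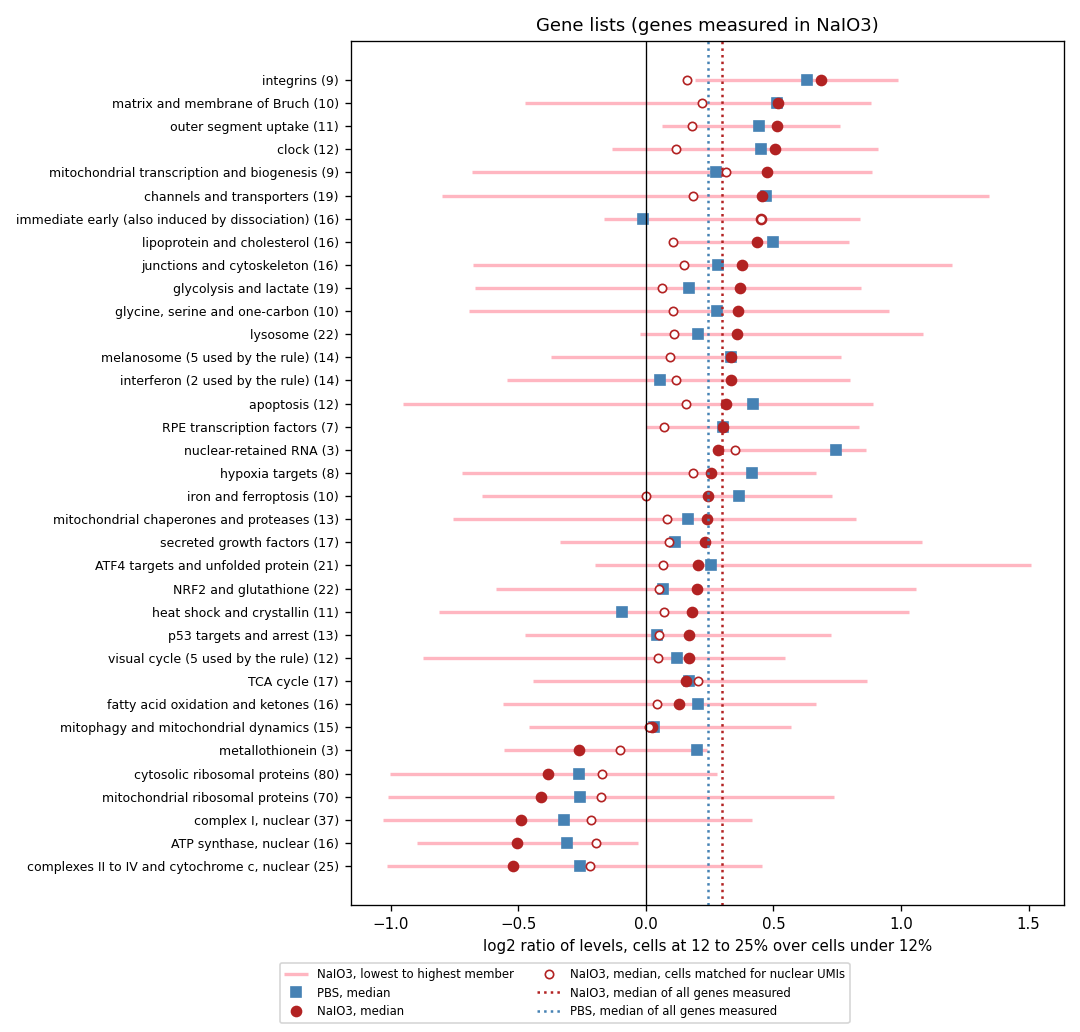
Median log2 ratio, cells at 12 to 25% over cells under 12%, of each gene list in NaIO3 (filled circles), in NaIO3 cells matched for nuclear-encoded UMIs (open circles) and in PBS (squares). Bars span the lowest to highest NaIO3 member, numbers in brackets are genes measured in NaIO3, and dotted lines are the medians of all genes, 0.30 and 0.24. Respiratory chain and ribosomal lists lie left of 0 in both libraries.

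The differences were graded within the range. Slc7a5 stood at 37.0 CPM in NaIO3 cells under 6%, 146 at 10 to 12%, 186 at 12 to 14% and 358 at 20 to 25%. Ndufa4 stood at 2233, 1418, 1104 and 588 CPM in the same bins. The share of the 78 respiratory chain genes was 5.35% under 6%, 3.71% at 12 to 14% and 2.75% at 20 to 25%, and that of Ttr was 8.93%, 4.77% and 2.89%. These values had no step at 12%, and the cells just inside it were closer to those just outside than to those at 20 to 25%. In PBS, Ndufa4 stood at 1963, 1938, 1715 and 933 CPM in the same bins as Slc7a5 above, and it was thus near level up to 12% and lower beyond it.

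**Figure D5:**
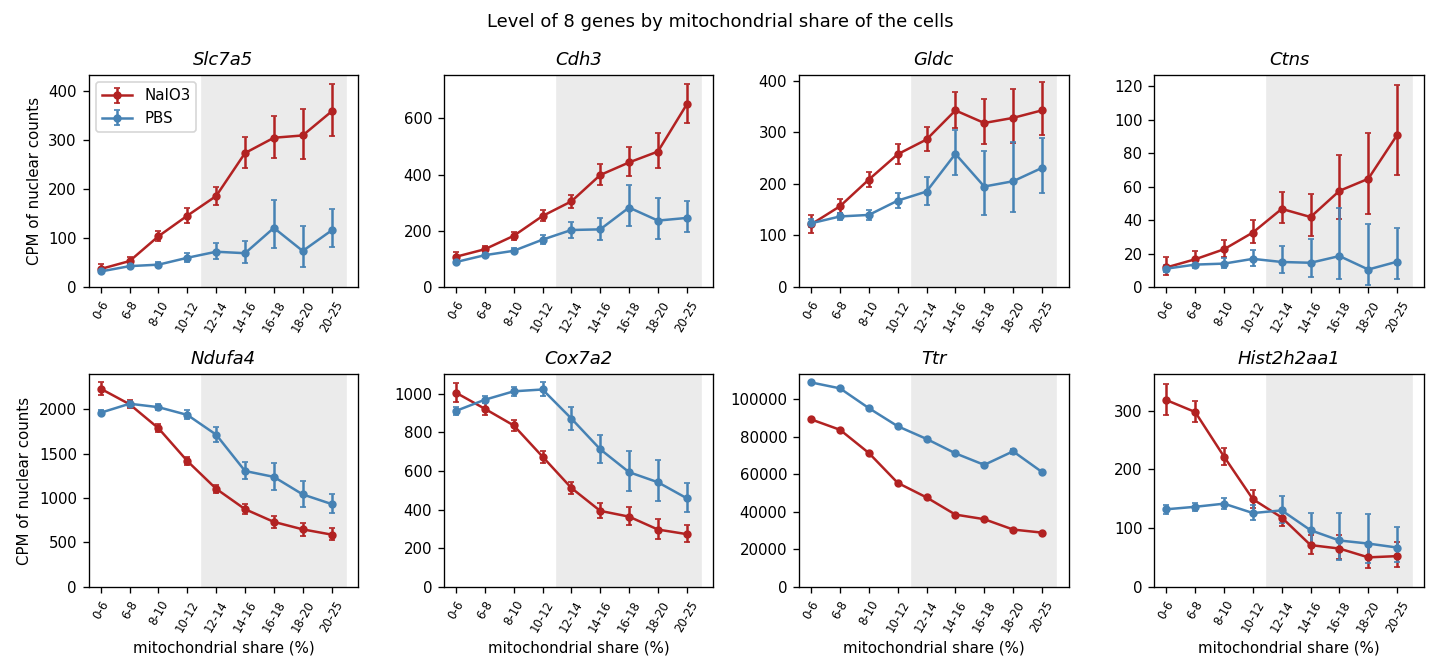
Level of 8 genes in CPM of nuclear-encoded counts (each axis starts at 0) in bins of the mitochondrial share, in NaIO3 and PBS, with exact Poisson 95% intervals and the range from 12% shaded. The 4 upper genes go up with the share in NaIO3 and the 4 lower genes go down, with Ctns flat in PBS.

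The pattern was shared with other RPE cells. Across 7315 genes measured in both libraries, the log2 ratios of NaIO3 and PBS had a Pearson r of 0.725 and a Spearman rho of 0.724, as a description. Of these 7315 genes 3459 were higher in NaIO3 and 3157 in PBS. Higher in both were 2474, 71.5% of the NaIO3 and 78.4% of the PBS genes. Lower were 998 in NaIO3, 711 in PBS and 398 in both, 39.9% and 56.0%. Among all genes measured in PBS, 43.4% were higher and 10.3% lower. Melanosome-rich NaIO3 cells, with 295 at 12 to 25%, had 45.4% of 3673 genes higher and 18.5% lower, and r with the NaIO3 ratios was 0.918 across those genes. Of the 15 higher named genes 11 had at least 200 counts there, and 10 of these were higher, Trpm1 with 1.16 being the exception. All 14 lower ones had that many and were lower. No gene pattern described here was tested as particular to the NaIO3 cells.

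Markers of other cells were measured in the same droplets. Summed rod markers stood at 639 against 417 CPM, a ratio of 1.53 (1.47 to 1.60) with 12 of 12 higher, macrophage markers at 4222 against 3039 CPM (1.39, 8 of 10 higher), and surface epithelium markers at 2163 against 1620 CPM (1.33, 6 of 7 higher, Ly6d at 0). Of all genes measured 47.8% were higher. Among the rod markers Pde6a and Pde6b had under 200 summed counts. Per droplet all 3 marker classes were fewer at 12 to 25%, 4.29 against 5.95 UMIs for rods, 28.3 against 43.3 for macrophages and 14.5 against 23.1 for surface epithelium. These levels were 45.1%, 13.5% and 11.5% of those in the library's other barcodes. Fibroblast markers stood at 77.7 against 61.5 CPM, mural markers at 246 against 212, endothelial markers at 11.5 against 10.9, and Müller glia markers at 22020 against 19691. Their ratios were 1.26, 1.16, 1.06 (0.761 to 1.45, which includes 1) and 1.12, against 1.23 for the median gene. Müller glia markers stood at 88.8% of their level in the other barcodes. In the NaIO3 droplets counts of the rod, macrophage and surface epithelium markers were thus a larger part of a smaller total. The part of RNA from any of these other cells in the ratios of genes they express was not tested. In PBS the summed rod markers had a ratio of 1.39 with 12 of 12 higher. PBS macrophage markers had 0.93 (0.835 to 1.04) with 2 of 10 higher, and surface epithelium markers 0.712. The NaIO3 surface epithelium barcodes themselves had a median mitochondrial share of 2.96%, and 3 of 695 lay at 12 to 25%.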

How the data were processed

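The authors deposited 1 matrix of raw counts (UMIs) per library. Per the submitters' processing notes they came from Cell Ranger 3.0.2 on the mm10 build; no source used here gives the annotation release, strand setting or handling of reads matching several genes. The same rule selected cells in both libraries, each with its own melanosome limit (23.2 per 10000 counts in NaIO3, 20.2 in PBS). Counts were summed per group of cells, with numpy 2.4.6, scipy 1.17.1 and pandas 2.3.3. Ratios carry exact conditional binomial, levels exact Poisson and shares Clopper-Pearson 95% intervals, tested on simulated data. Transcript lengths came from GENCODE M21. Doublets were kept; as an alternative the highest Scrublet scores (scanpy 1.11.5), 132 NaIO3 and 171 PBS barcodes, were left out, since the automatic threshold marked 4 and 0. Named genes were the 5 given markers and the 15 higher and 15 lower genes whose interval bound nearest to 1 was farthest from it, without mitochondrial, ribosomal protein, haemoglobin, predicted and sex-linked genes and 27 at under 0.1 of their level in non-RPE barcodes (7053 were ranked); list members were named by level, at most 6 per list. A few genes that these rules name, 1 of the lower 15 among them, are not reported here. The cells, genes and lists were chosen with earlier results of these data known. Alternatives varied the mitochondrial, melanosome, visual cycle and interferon limits, denominator, weighting, count minimum, fold and rod-rich cells; division by the median ratio and leaving out shared barcodes were added after seeing the data.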

Additional observations from a re-analysis of the deposited data

Results flagged for a closer look

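Summed surface epithelium markers and summed red cell markers went in opposite directions in the 2 libraries, and the difference was not tested. Summed surface epithelium markers (7 genes) had a ratio of 1.33 (1.30 to 1.37) between NaIO3 cells at 12 to 25% and under 12%, and of 0.712 (0.616 to 0.818) in PBS, where they stood at 91.1 against 128 CPM. Summed haemoglobin transcripts (3 genes) had a ratio of 1.26 (1.04 to 1.52) in NaIO3, at 35.1 against 27.8 CPM, and of 0.654 (0.625 to 0.685) in PBS, at 849 against 1297 CPM.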

How the results depend on the processing

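No NaIO3 gene or list past the threshold changed direction under an alternative, while in PBS Dkk3 went from 1.45 to 0.836 in strata of nuclear-encoded UMIs. Enpp2 and 13 list medians that lay between 0 and the median of all genes turned negative after division by the median ratio, and the mitophagy list, near 0, also did so under 4 other alternatives. No paired analysis was possible because each group has 1 library. The share of NaIO3 cells (45.7%) was 62.7% with a range of 10 to 25%, 23.7% at 15 to 25% and 20.3% with a visual cycle sum of at least 200, and that of PBS cells (13.9%) was 26.1%, 7.15% and 9.95%, and 15.4% with no melanosome limit. Higher genes in NaIO3 (3556) were 1777 with the visual cycle sum of 200, 1836 in strata of nuclear-encoded UMIs, 5944 with a minimum of 20 counts, 1658 at 1.5-fold and 1438 after division by the median ratio. Lower genes in NaIO3 (999) were 639 in the strata, 1677 with 20 counts, 403 at 1.5-fold and 2006 after division by the median ratio. Higher genes in PBS (3736) were 1560 at 1.5-fold and 1700 after division by the median ratio. Lower genes in PBS (886) were 491 at 10 to 25%, 1477 at 15 to 25%, 1568 with all counts as denominator, 1963 with 20 counts, 201 at 1.5-fold and 2164 after division by the median ratio. Fewer or more genes are tested under another count minimum or a smaller set of cells; otherwise the cause was not tested. Over 14 alternatives the log2 ratios of the 34 named genes moved beyond their interval in 154 cases and stayed in 322; in the strata of nuclear-encoded UMIs all 34 moved, towards 0. Depth limits rare genes: those under 200 summed counts are not described.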
